A study of Mus musculus with 12 samples.

Results

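A set of 10 genes of heat-producing fat cells was followed: Ucp1, Cidea, Elovl3, Cox8b, Cox7a1, Ppargc1a, Dio2, Cpt1b, Prdm16 and Fabp3. They were chosen by gene symbol on an Affymetrix mouse array, and 9 of the 10 were measured, by 19 probe sets, among 18194 genes on 45101 probe sets. The single probe set of Cpt1b, the muscle-type enzyme that takes fatty acids into mitochondria, also lists other genes, so Cpt1b was not used. The tissue was abdominal fat pads of female mice on a C57BL/6 background, either wild type or lacking p47phox (the strain labelled P47KO), the organizer subunit of the phagocyte NADPH oxidase, encoded by Ncf1. From postnatal day 28 the mice ate a casein diet or a high fat diet for 13 weeks, so that the 2 genotypes and 2 diets made 4 groups of 3 pools each. The labels do not give how many mice made up a pool, so every p-value below measures only the spread between pools.

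Brown and beige adipocytes differ from white ones in burning fuel for heat. UCP1, in the inner mitochondrial membrane, lets protons back into the matrix without making ATP. Noradrenaline from sympathetic nerves, acting through cAMP, raises Ucp1 transcription and releases the fatty acids that activate the protein. PGC-1alpha (Ppargc1a) and PRDM16 are transcriptional coregulators of this programme, and the deiodinase encoded by Dio2 makes active thyroid hormone inside the cell. In mice, abdominal pads are mostly white fat, in which cells with Ucp1 are scattered.

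All values are log2 values that the authors had centred, so that each probe set has a median of 0 across the 12 pools. They show differences between pools, never how abundant a transcript is, and one gene's value cannot be set against another's as a level. A gene with several probe sets was given their mean. In whole tissue, fewer cells of a type and less RNA per cell cannot be told apart.

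The 250 bases before the annotated start of 4 members are shown because Ucp1, Cox7a1 and Cox8b varied together across the pools while Dio2 followed another pattern. They come from RefSeq's table for GRCm38.p6, from which windows of 7 of the 10 members were taken. The windows are chr8:83290098-83290347 on the plus strand for Ucp1, chr7:30183921-30184170 on the plus strand for Cox7a1, chr7:140900447-140900696 on the minus strand for Cox8b and chr12:90739039-90739288 on the minus strand for Dio2. Each is upstream of the transcript, written 5′ to 3′ along the gene, and capitals mark matches on either strand to 3 motifs. The first, the core of the cAMP response element through which noradrenaline signals, is spelled TGACG. A second motif, the core that nuclear receptors of the thyroid hormone and retinoid family read, is AGGTCA. The last, the box that positions RNA polymerase at many tissue-specific genes, is TATAAA.
Ucp1: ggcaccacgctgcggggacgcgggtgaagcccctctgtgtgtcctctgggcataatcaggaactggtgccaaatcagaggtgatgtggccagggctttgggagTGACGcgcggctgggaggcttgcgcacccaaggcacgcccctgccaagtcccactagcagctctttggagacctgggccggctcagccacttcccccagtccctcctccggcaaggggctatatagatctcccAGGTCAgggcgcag
Cox7a1: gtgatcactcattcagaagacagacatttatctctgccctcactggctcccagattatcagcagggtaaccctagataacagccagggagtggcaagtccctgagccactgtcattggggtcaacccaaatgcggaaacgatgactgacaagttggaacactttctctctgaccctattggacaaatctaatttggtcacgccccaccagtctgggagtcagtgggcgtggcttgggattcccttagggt
Cox8b: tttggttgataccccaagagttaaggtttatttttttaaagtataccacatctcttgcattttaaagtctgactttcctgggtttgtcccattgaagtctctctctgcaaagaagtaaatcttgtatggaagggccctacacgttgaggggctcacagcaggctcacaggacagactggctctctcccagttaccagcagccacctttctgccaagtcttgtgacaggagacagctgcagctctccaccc
Dio2: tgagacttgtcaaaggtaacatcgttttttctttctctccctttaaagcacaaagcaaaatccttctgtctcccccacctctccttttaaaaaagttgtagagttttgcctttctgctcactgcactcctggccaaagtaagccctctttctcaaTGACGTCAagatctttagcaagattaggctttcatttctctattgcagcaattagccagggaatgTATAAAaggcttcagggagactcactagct
TGACG stood 147 to 143 bases before the Ucp1 start and AGGTCA 14 to 9 bases before it. In the Dio2 window TGACG occurred on both strands, 95 to 91 and 92 to 88 bases before the start, overlapping as the palindrome TGACGTCA, and TATAAA lay 30 to 25 bases before the start. The windows of Cox7a1 and Cox8b held none of the 3 letter strings, which says only that these letters are not in those 250 bases. TGACG was found in 4 of the 7 members with a window and in 17.8% of 32851 windows of the same length. No chromosome was set aside among the 32851. AGGTCA was found in 1 of 7 against 14.0%, and TATAAA in 1 of 7 against 12.4%.

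The genotype labels and the purity of the pools were looked at first. Ncf1 lay between -0.29 and -0.19 in the 6 null pools and between 0.07 and 0.85 in the 6 wild type pools, with no overlap. The median of 13 mature fat cell genes ran from -0.02 to 0.23 in wild type casein, from -0.18 to 0.07 in null casein, from 0.15 to 0.24 in wild type high fat and from -0.55 to -0.05 in null high fat pools, and centred values cannot show that such markers are high in absolute terms. The median of 29 skeletal muscle genes ran from -0.31 to 2.61 in wild type casein, from -0.61 to 1.75 in null casein, from -1.38 to 4.58 in wild type high fat and from -1.44 to 3.60 in null high fat pools, so each group held pools low and high in muscle genes. Wild type casein pool 3 stood apart in the medians of the liver list (4.64, 15 genes), the adrenal list (2.38, 11 genes) and the lymphocyte list (1.41, 11 genes). The median of 18 genes of ovary, oviduct and uterus ran from -1.10 to 0.17 in wild type casein, from -0.04 to 0.31 in null casein, from -0.96 to -0.79 in wild type high fat and from 0.12 to 0.83 in null high fat pools. The part these tissues play in the differences below was not tested, except where a value without a pool or with a muscle term is given.

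Ucp1, read by probe set 1418197_at, had values of 1.77, 3.72 and 2.95 in the wild type casein pools and of -4.89, 1.41 and 0.86 in the null casein pools. On the high fat diet the wild type pools stood at -0.86, 1.95 and -2.05, and the null pools at -2.53, -1.05 and -1.60. The 3 wild type casein pools were thus above all null casein pools, whereas wild type high fat pool 2 lay within the wild type casein range and null casein pool 1 lay far below every other pool. From its lowest to its highest pool Ucp1 spanned 8.62 log2 units, wider than 99.97% of all probe sets, whose median span was 0.56. Its pools also differed within a group: the pooled within-group SD was 2.12, against a median of 0.14 over all genes. Among the 4 group means the order was wild type casein (2.81 ± 0.98, SD, n = 3), wild type high fat (-0.32 ± 2.05, n = 3), null casein (-0.88 ± 3.49, n = 3) and null high fat (-1.73 ± 0.75, n = 3). The pools of every neighbouring pair in this order overlapped.

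**Figure D1:**
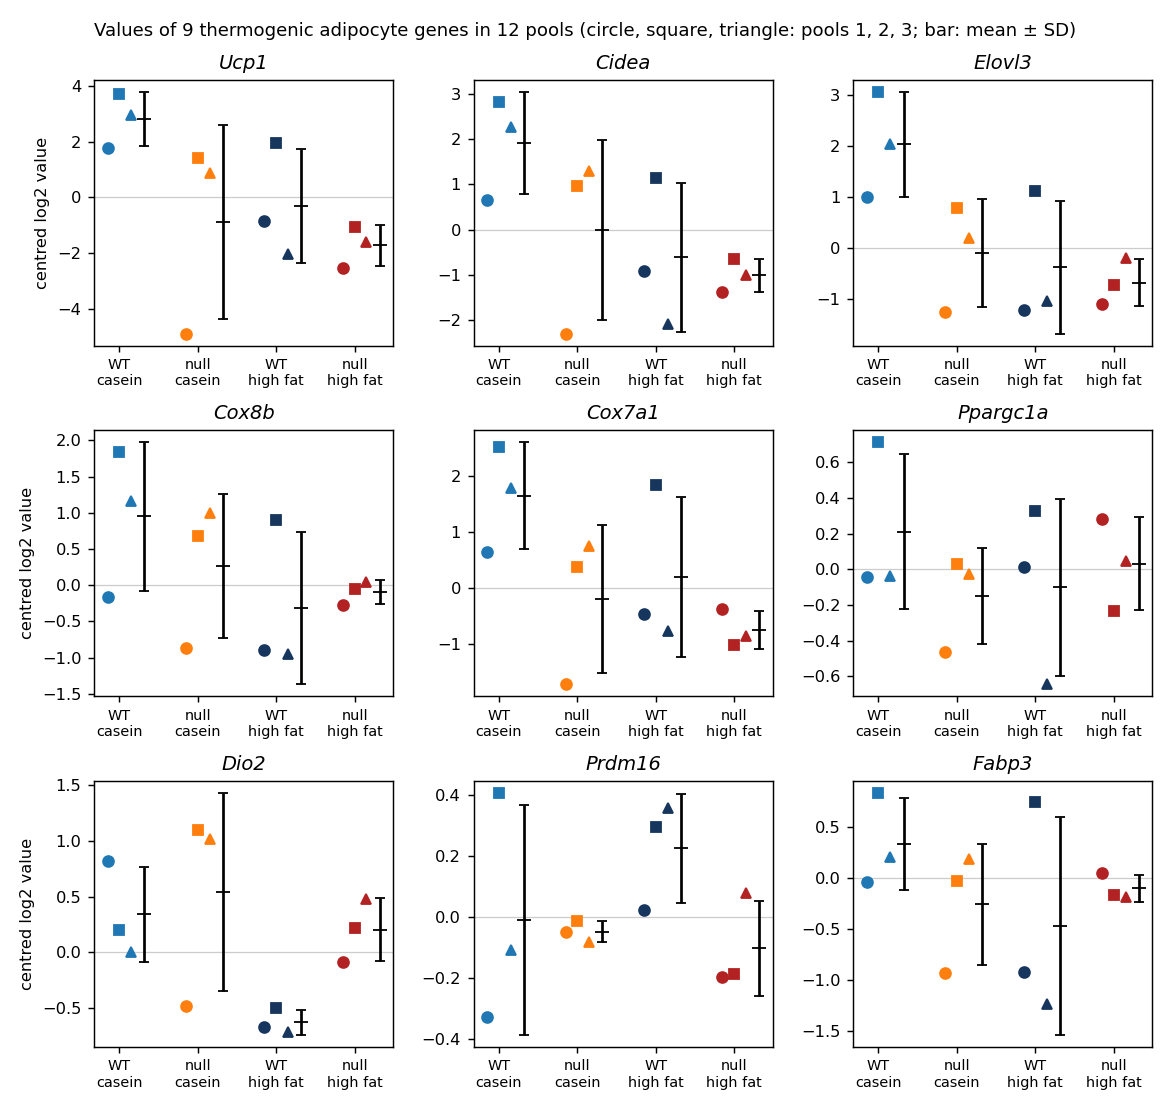
Centred log2 value of each of the 9 measured members (vertical axis) in each of the 12 pools, grouped by genotype and diet, in a panel for each gene with its own scale; circles, squares and triangles are pools 1, 2 and 3 and the black bars group means ± SD. Ucp1 runs from -4.89 in null casein pool 1 to 3.72 in wild type casein pool 2, while Prdm16 stays between -0.33 and 0.41.

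Cidea, a lipid droplet protein abundant in brown fat, followed the same outline on a smaller scale. Its values were 0.65, 2.82 and 2.28 in wild type casein, -2.29, 0.97 and 1.30 in null casein, -0.91, 1.15 and -2.08 in wild type high fat and -1.39, -0.65 and -1.0 in null high fat pools. Here wild type casein pool 1 lay below 2 of the null casein pools, so those groups overlapped. Elovl3, an elongase that makes very long chain fatty acids in cold-stimulated brown fat, had values of 1.0, 3.06 and 2.04 in wild type casein and of -1.25, 0.80 and 0.19 in null casein pools. On the high fat diet the wild type pools read -1.20, 1.12 and -1.04, and those of null mice -1.10, -0.72 and -0.19. As for Ucp1, the wild type casein pools were all above the null casein pools, and wild type high fat pool 2 was the highest pool on that diet.

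Cox7a1 and Cox8b encode the isoforms of cytochrome c oxidase subunits found in heart, skeletal muscle and brown fat. Cox7a1 had values of 0.64, 2.52 and 1.78 in wild type casein, -1.70, 0.37 and 0.75 in null casein, -0.47, 1.83 and -0.77 in wild type high fat and -0.37, -1.02 and -0.85 in null high fat pools. Cox8b had values of -0.17, 1.85 and 1.17, then -0.87, 0.68 and 0.99, then -0.90, 0.89 and -0.95, then -0.28, -0.05 and 0.05 in the same order of groups. Both genes were highest in wild type casein pool 2, and for both the groups overlapped in every comparison. Fabp3, the heart-type fatty acid binding protein, gave a divided reading. Probe set 1416023_at spanned 3.96 and went from -2.39 in wild type high fat pool 3 to 1.56 in wild type casein pool 2, while 1444844_at spanned only 0.36, less than the median probe set, so the mean of the 2 understates the first. That mean was -0.04, 0.84 and 0.20 in wild type casein, -0.93, -0.03 and 0.19 in null casein, -0.92, 0.75 and -1.24 in wild type high fat and 0.05, -0.17 and -0.18 in null high fat pools, with no pair of groups separated.

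Of the regulators, Ppargc1a varied less than Ucp1 but more than most genes, with a pooled within-group SD of 0.38 against the median of 0.14. Its means of 5 probe sets, whose own spans ran from 0.77 to 2.12, were -0.05, 0.71 and -0.04 in wild type casein, -0.46, 0.03 and -0.02 in null casein, 0.02, 0.32 and -0.64 in wild type high fat and 0.28, -0.24 and 0.05 in null high fat pools. Prdm16, with 4 probe sets of spans from 0.54 to 1.26, had values of -0.33, 0.41 and -0.11, then -0.05, -0.01 and -0.08, then 0.02, 0.29 and 0.36, then -0.20, -0.19 and 0.08 in the same order. Wild type casein pool 2 was again the highest pool for both, and their groups overlapped in every comparison.

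Dio2 had a pattern of its own. Its values were 0.82, 0.20 and 0.01 in wild type casein, -0.48, 1.10 and 1.01 in null casein, -0.67, -0.50 and -0.71 in wild type high fat and -0.08, 0.22 and 0.48 in null high fat pools. In these means of 3 probe sets, the wild type high fat pools were thus the lowest of all 12. They overlapped neither the wild type casein nor the null high fat pools. Most of this came from probe set 1418937_at, which spanned 4.06, against 0.92 and 0.96 for the 2 others of the gene. In 1418937_at by itself, null casein pool 1 (-1.25) lay below wild type high fat pool 2 (-1.21). In 1418938_at the wild type high fat pools read -0.02, -0.12 and -0.04 and overlapped both of those groups.

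On the high fat diet, wild type pools had lower values than on casein for 8 of 9 members, with a median difference of -1.27 against 0.00 over all genes. Ucp1 differed by -3.13 ± 1.51 (SE; adjusted p = 0.670), Elovl3 by -2.41 ± 0.72 (adjusted p = 0.538), Cidea by -2.53 ± 1.01 (adjusted p = 0.639) and Cox7a1 by -1.45 ± 0.78 (adjusted p = 0.699). limma, with Benjamini-Hochberg adjustment over all 18194 genes, called 0 of 9 members and 0% of all genes. At an unadjusted p under 0.05 it had 3 of 9 members, Elovl3, Dio2 and Cidea, against 7.61% of genes. Dio2 was the 1 member whose groups did not overlap with the high fat pools lower, which 4.86% of genes also showed, and no member's were higher without overlap (7.07% of genes). It differed by -0.97 ± 0.37 (adjusted p = 0.629). Wild type casein pool 1 and wild type high fat pool 2 are rich in muscle genes. Without them and null high fat pool 1, the third pool high in muscle genes, the difference was -4.79 for Ucp1, -4.04 for Cidea, -3.67 for Elovl3 and -2.77 for Cox7a1. Leaving out wild type high fat pool 3 instead, the lowest of its group for Ucp1 and Cidea, gave -2.27 for Ucp1, -1.80 for Cidea and -0.96 for Cox7a1. With the muscle median as a covariate the Ucp1 difference was -3.13, as without it.

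In the null mice the members' differences between the diets depended on which casein pools were kept. With all pools the median difference was -0.36, 7 of 9 lay below 0, and Ucp1 differed by -0.85 ± 1.51 (adjusted p = 0.9996). limma called 0 of 9 members and 0% of genes, with 0 of 9 at an unadjusted p under 0.05 against 4% of genes. No member had groups that did not overlap, which 5.7% of genes showed with the high fat pools lower and 4.89% with them higher. Without null casein pool 1, the pool at -4.89, differences were -2.86 for Ucp1, -2.15 for Cidea, -1.30 for Cox7a1 and -0.85 for Dio2. These lay near the differences in wild type mice. Others stayed further off: Elovl3 was -1.17 against -2.41 in wild type mice, Fabp3 -0.18 against -0.80 and Ppargc1a 0.03 against -0.31. Cox8b was -0.93 against -1.27 and Prdm16 -0.05 against 0.23. Leaving out null casein pool 2 instead moved Ucp1 to 0.29, and leaving out pool 3 of that group moved it to 0.01. The test of whether the diet difference depended on genotype gave 2.28 ± 2.13 for Ucp1 (limma, adjusted p = 0.844), with a 95% interval from -2.45 to 7.0. Leaving out 1 pool at a time, the Ucp1 value ran from 0.27, without null casein pool 1, to 3.42. Without the 3 pools high in muscle genes it was 4.33. The estimate was above 0 for 8 of 9 members, with a median of 0.91 against -0.0045 over all genes. The test called 0 of 9 members and 0% of genes, with 0 of 9 at an unadjusted p under 0.05 against 6.12%, so no dependence on genotype was detectable with 3 pools a group.

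**Figure D2:**
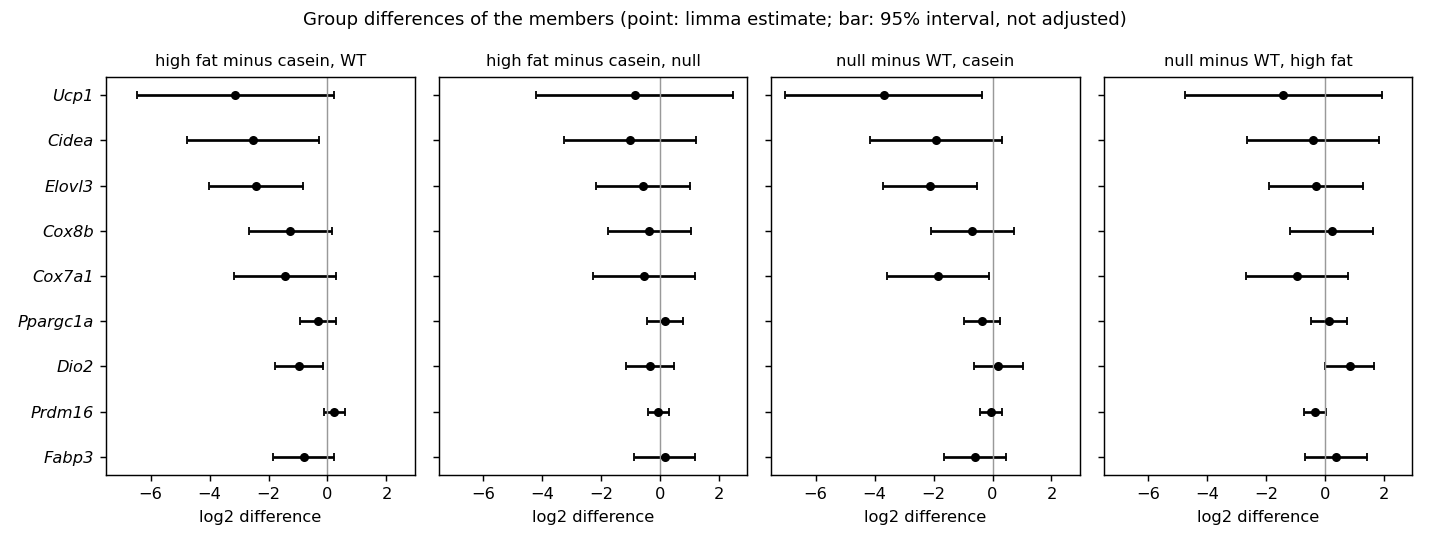
Difference of group means on the log2 scale (points), with 95% confidence intervals from limma that are not adjusted (bars), for the 9 members in 4 panels: diet in wild type mice, diet in null mice, genotype on casein and genotype on the high fat diet. Ucp1 has the widest intervals, from -7.03 to -0.35 for null against wild type on casein, and Prdm16 the narrowest.

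On casein, null pools had lower values than wild type pools for 8 of 9 members, with a median of -0.68 against -0.01 over all genes. Ucp1 differed by -3.69 ± 1.51, or 12.9-fold lower (adjusted p = 0.592), Elovl3 by -2.13 ± 0.72 (adjusted p = 0.570) and Cox7a1 by -1.84 ± 0.78 (adjusted p = 0.594). limma called 0 of 9 members and 0% of genes. At an unadjusted p under 0.05 it had these 3 of 9, against 8.12% of genes. Ucp1 and Elovl3, 2 of 9, had null pools all below wild type pools, which 6.57% of genes showed, and 0 of 9 had them all above (5.4% of genes). A single pool carried much of this: once null casein pool 1 was dropped, differences were -1.68 for Ucp1, -0.78 for Cidea, -1.54 for Elovl3, -1.09 for Cox7a1 and -0.11 for Cox8b. This comparison and that of the diets in wild type mice share the wild type casein pools, in which 8 of the 9 members reached their highest value. The share of all genes with their highest value in those pools was not computed.

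On the high fat diet the members did not lean one way by genotype. Of the 9 differences, 5, taken as null minus wild type, were below 0, with a median of -0.30 against -0.03 over all genes. Ucp1 differed by -1.41 ± 1.51 (adjusted p = 0.621; -0.28 without wild type high fat pool 2) and Cidea by -0.40 ± 1.01 (adjusted p = 0.856), and without the 3 muscle-rich pools both turned to the other sign, at 0.13 and 0.67. limma called 0 of 9 members although it called 5.92% of all genes, 3.21% higher and 2.71% lower in null pools, and 1 of 9 had an unadjusted p under 0.05 against 24.9% of genes. That 1 was Dio2, higher in null pools by 0.83 ± 0.37 (adjusted p = 0.196), and its null pools were all above its wild type pools, as for 14.9% of genes. By probe set the Dio2 difference was 2.20 for 1418937_at, 0.26 for 1426081_a_at and 0.04 for 1418938_at, where the groups overlapped. Dio2 was called with array weights (adjusted p = 0.0360), with only those 2 groups in the fit (0.0320) and without null casein pool 1 (0.0450), and over all alternatives its adjusted p ran from 0.0320 to 0.461. The reproductive tract list moved in the same pools: 6 of its 18 genes were higher in null pools at an adjusted p under 0.05 and 0 lower, with a median difference of 1.45, and its median correlated with Dio2 at r = 0.60 over the 12 pools. The endothelial list moved the other way in these pools, with 10 of 10 genes lower in null pools, 2 of them called, and its median had r = -0.68 with Dio2 and 0.79 with Prdm16. The macrophage median had r = -0.66 with Dio2, with 0 of its 10 genes called by limma and 5 at an unadjusted p under 0.05. The part of these lists in the differences of Dio2 and Prdm16 was not tested.

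Averaged over both diets, null pools were lower for 8 of 9 members, with a median of -0.23 against -0.02 over all genes. Ucp1 differed by -2.55 ± 1.07 (adjusted p = 0.164), Cox7a1 by -1.39 ± 0.55 (adjusted p = 0.143) and Elovl3 by -1.21 ± 0.51 (adjusted p = 0.165). Dropping null casein pool 1 moved Ucp1 to -1.54. limma called 0 of 9 members against 7.52% of genes, 4.09% higher and 3.42% lower, and the same 3 genes of 9 had an unadjusted p under 0.05 against 25.6%. For the diets averaged over both genotypes it called 0 of 9 members against 0.0055% of genes, with 3 of 9 at an unadjusted p under 0.05 against 5.23%, and Ucp1 differed by -1.99 ± 1.07 (adjusted p = 0.942). At 3 pools a group, the 12.9-fold difference in Ucp1 on casein did not pass the threshold.

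Although the groups were not resolved, the members varied together from pool to pool. Over the 12 pools Ucp1 correlated with Cidea at r = 0.96 (Spearman 0.94), with Cox7a1 at 0.93 (0.87), with Elovl3 at 0.91 (0.92), with Cox8b at 0.84 (0.78) and with Fabp3 at 0.75 (0.77). These were part of 9 relations computed. In permutation tests with 100000 resamples the adjusted p was 9e-05 for Cidea and Elovl3, both at the smallest raw p of 2e-05 that the resamples can give, 0.00012 for Cox7a1, 0.00144 for Cox8b and 0.009936 for Fabp3. After group means were subtracted r was 0.96, 0.87, 0.85, 0.87 and 0.81 in the order Cidea, Cox7a1, Elovl3, Cox8b and Fabp3. The genes thus also varied together within groups. These within-group values were not tested, nor computed without single pools. The permutations shuffled pools across all 4 groups, so their p-values include the differences between groups. Without null casein pool 1 and wild type casein pool 2, the pools farthest from the median of Ucp1, r was 0.95 for Cidea, 0.89 for Cox7a1, 0.94 for Elovl3, 0.76 for Cox8b and 0.60 for Fabp3. All 12 values share the arrays and their normalization.

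**Figure D3:**
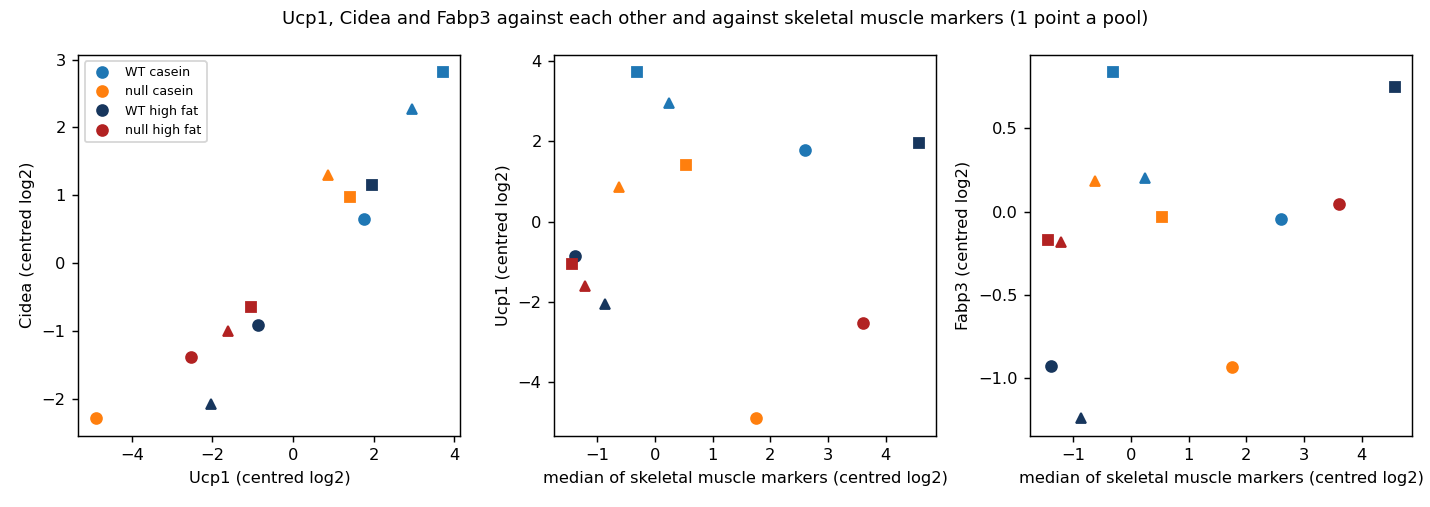
Centred log2 values with 1 point a pool, coloured by group and shaped by pool number: Cidea against Ucp1 (left), Ucp1 against the median of the skeletal muscle genes (middle) and Fabp3 against the same median (right). Cidea and Ucp1 lie along a line (r = 0.96), whereas the pools with muscle medians of 4.58 and 3.60 have Ucp1 values of 1.95 and -2.53.

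The regulators were less close to Ucp1. Ppargc1a correlated with it at r = 0.62 (Spearman 0.43, adjusted permutation p = 0.04827 and 0.2434), 0.63 after group means were subtracted and 0.27 without the same 2 pools, so over the 12 pools its relation to Ucp1 rested on them. It lay nearer to other members, at r = 0.84 with Fabp3 (0.82 after group means were subtracted), 0.72 with Cox7a1 (0.80) and 0.71 with Cox8b (0.72), given as a description. Dio2 (r = 0.41, Spearman 0.29, adjusted permutation p = 0.2376 and 0.4698) and Prdm16 (r = 0.18, Spearman 0.16, adjusted permutation p = 0.6473 and 0.6207) showed no relation that passed. Within groups, however, Dio2 reached r = 0.72 with Ucp1, a value in which null casein pool 1 weighs heavily. That pool was the lowest of its group for both genes, at -4.89 for Ucp1 and -0.48 for Dio2. In wild type casein, by contrast, the pool lowest for Ucp1 (1.77) was the highest for Dio2 (0.82). The within-group r was not computed without null casein pool 1. The skeletal muscle median had r = 0.04 with Ucp1 (Spearman 0.16, adjusted permutation p = 0.9131 and 0.6207), and 0.29 without those 2 pools. Ranked by r with Ucp1 among 18193 other genes, Cidea was number 1, Cox7a1 3, Elovl3 5, Cox8b 29, Fabp3 126, Ppargc1a 550, Dio2 2237 and Prdm16 5887.

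**Figure D4:**
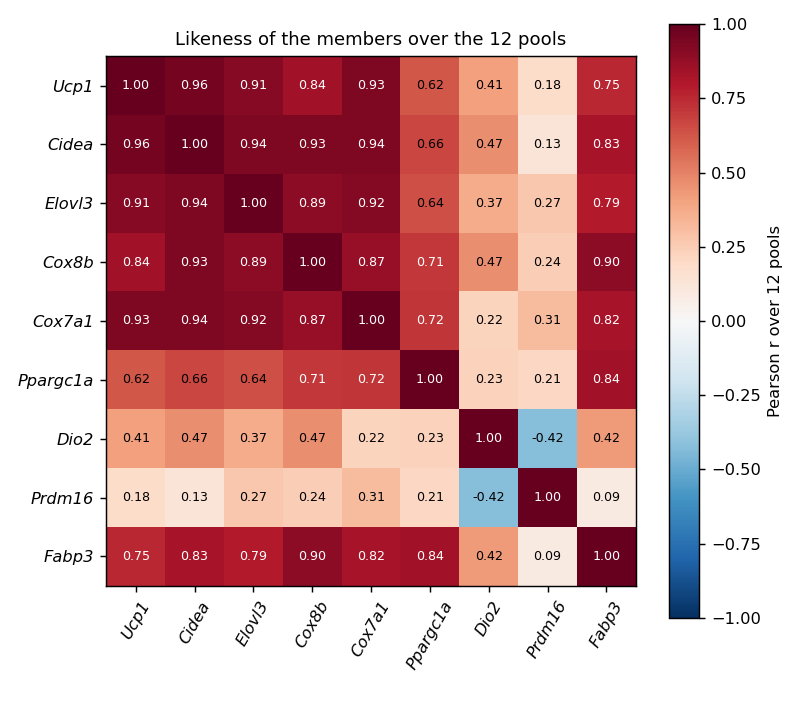
Pearson correlation over the 12 pools for every pair of the 9 measured members, as a coloured grid. Ucp1, Cidea, Elovl3, Cox7a1 and Cox8b form a block with r from 0.84 to 0.96, and Prdm16 has 0.18 with Ucp1.

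Outside the members, the 8 genes most like Ucp1 over the 12 pools were Acot11 (r = 0.94), Otop1 (0.91), Gpd1 (0.89), Pgk1 (0.88), Slc43a2 (0.88), Cox10 (0.88), Triobp (0.87) and Sars2 (0.87), given as a description. Acot11 is a thioesterase also known as brown-fat-inducible thioesterase, Otop1 a proton channel known as a brown fat marker, and Gpd1 the cytosolic glycerol-3-phosphate dehydrogenase. Acot11 stood at 0.70, 1.92 and 1.66 in wild type casein, -0.90, 0.49 and 0.10 in null casein, -0.34, 1.02 and -0.55 in wild type high fat and -0.63, -0.51 and -0.27 in null high fat pools, with its highest and lowest values in the same pools as Ucp1. It also led the genes nearest to Elovl3 (r = 0.98), Cox7a1 (0.95) and Cidea (0.94). The nearest to Cox8b was Ppara (0.96), the nuclear receptor for fatty acids, followed by Hadha (0.95), of mitochondrial fatty acid oxidation. The genes nearest to Dio2 were Tfcp2l1 (0.94), Chdh (0.94), Ramp3 (0.91) and Wfdc2 (0.91), and Hsd11b2 and Ap1m2 (both 0.89) were among its first 8. Several of these, such as Wfdc2 and Ap1m2, are known from epithelia.

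Genes around Ucp1 were taken from lists of its pathway. Of 36 further markers of brown and beige fat, 17 had their highest value in wild type casein pool 2, the pool highest for 8 of 9 members. Their median was 0.51 there and 0.31 in wild type casein pool 3, against -0.13 to 0.06 in the 10 other pools. The share of all genes with their highest value in wild type casein pool 2 was not computed. Some peaks in pool 3 coincided with its liver and adrenal signal: Slc27a2, a fatty acid transporter also made in liver, reached 3.25, Cpn2, also a liver product, 2.75, and Kcnk3, a potassium channel also made in adrenal cortex, 1.14. In wild type mice the list's median diet difference was -0.26 against 0.00 over all genes, with 27 of 36 below 0, and on casein the median genotype difference was -0.29 against -0.01, with 26 of 36 below 0. limma called 0 of the 36 in each of these, with 10 at an unadjusted p under 0.05 for diet (7.61% of all genes) and 7 for genotype (8.12% of all genes).

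**Figure D5:**
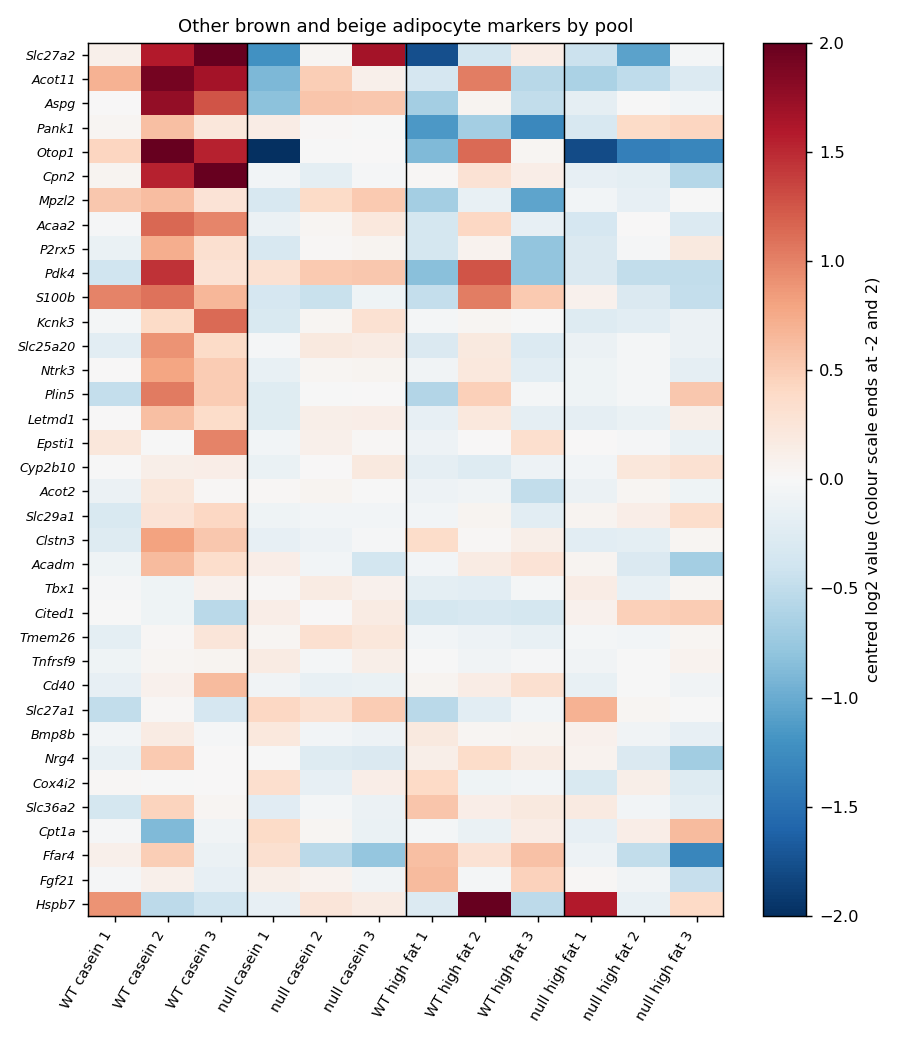
Centred log2 values of the 36 further brown and beige fat markers (rows) in the 12 pools (columns), in a colour scale that ends at -2 and 2. Acot11 and Otop1 follow Ucp1, with 1.92 and 2.27 in wild type casein pool 2, while Slc27a2 (3.25), Cpn2 (2.75) and Kcnk3 (1.14) peak in wild type casein pool 3.

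Between genotypes, a few genes of the lists passed where no member did. Averaged over the diets, Otop1 fell in null mice by 1.86 ± 0.47 (limma, adjusted p = 0.0424), at 0.43, 2.27 and 1.54 in wild type casein, -2.16, -0.01 and 0.01 in null casein, -0.88, 1.13 and 0.03 in wild type high fat and -1.79, -1.37 and -1.31 in null high fat pools. In each diet its null pools were all below its wild type pools. This held for 6.57% of all genes on casein and for 17.3% on the high fat diet. S100b, a calcium-binding protein that brown adipocytes release to draw in nerves, fell by 0.90 on the log2 scale (adjusted p = 0.0392), while Cited1, a beige cell marker, rose by 0.51 (0.0226) and Slc27a1, a fatty acid transporter, by 0.59 (0.0363). These were 2 higher and 2 lower of 36, with 32 not called, against 4.09% of all genes higher and 3.42% lower. S100b is also on the list of sympathetic nerve and Schwann cell markers. Of the 8 genes measured there, it was the only 1 called averaged over the diets, beside the same shares of all genes. Which cells its difference came from was not tested. On the high fat diet alone Pank1, of coenzyme A synthesis, rose by 1.21 ± 0.22 (adjusted p = 0.0234) and Cited1 by 0.70 ± 0.14 (0.0284), 2 of 36, with 0 lower, against 3.21% and 2.71% of all genes. The reproductive tract list was also higher in these null pools, with 17 of 18 differences above 0 and a median of 1.45. Its part in the differences of Pank1 and Cited1 was not tested.

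Of 36 transcriptional regulators, 2 were higher and 4 lower in null than in wild type pools on the high fat diet, where 3.21% of all genes were called higher and 2.71% lower. Pparg, the master regulator of fat cell formation, fell by 0.78 ± 0.15 (adjusted p = 0.0266), Cebpa by 0.53 ± 0.14 (0.0471), Ebf1 by 0.72 ± 0.18 (0.0463) and Rxra by 0.29 ± 0.07 (0.0435), all genes active in white as in brown fat cells. Ehmt1, a methyltransferase that partners PRDM16, rose by 0.35 ± 0.06 (0.0226) and Ctbp2, a corepressor, by 0.64 ± 0.16 (0.0466). The 13 mature fat cell genes measured, which include Pparg and Cebpa, moved in the same pools: 5 were called lower and 0 higher, beside the same shares of all genes, all 13 differences were below 0, and the median was -0.51. Their part in these differences was not tested. Ebf2, Esrra, Ppara and Ppargc1b were not called in any comparison: on this diet Ebf2, which marks brown fat precursors, differed by -0.59 (adjusted p = 0.075) and Ppargc1b by -0.37 (0.444).

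In the adrenergic and cAMP list, 1 of 16 measured genes was called on the high fat diet, a share near the 5.92% of all genes. Rgs2, which damps signalling by G proteins, rose in null against wild type pools on the high fat diet by 1.75 ± 0.23 (limma, adjusted p = 0.0121), from a wild type mean of -1.28 ± 0.38 to a null mean of 0.47 ± 0.19 (SD, n = 3 each), and by 0.95 averaged over the diets (adjusted p = 0.0163). The beta-adrenergic receptor genes were not named by a single-gene probe set and are not analysed here. Of 17 genes of heat production without UCP1, 0 were called on the high fat diet by limma (5.92% of all genes), with 6 at an unadjusted p under 0.05 (24.9% of all genes). Averaged over diets 4 of 17 were called, against 7.52% of all genes: Gamt, of creatine synthesis, fell by 0.58 on the log2 scale (adjusted p = 0.0251), Ucp3 by 0.51 (0.0288) and Gpd1 by 0.54 (0.0366), while Gatm, also of creatine synthesis, rose by 1.11 (0.0387). The creatine transporter Slc6a8 differed by 0.25 on the high fat diet (0.275). Ckmt2, the mitochondrial creatine kinase also made in muscle, stood at 5.62 in wild type high fat pool 2, 4.58 in null high fat pool 1 and 2.30 in wild type casein pool 1, the pools highest for muscle genes.

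These calls depended on single pools. For genotype on the high fat diet the number of genes called, 1077, fell to 0 when null high fat pool 2 or 3 was left out, so each gene named as called there lost its call. Dropping wild type high fat pool 1, 2 or 3 left 170, 210 or 32 genes, dropping null casein pool 2 left 456, and dropping null high fat pool 1 gave 1617. Averaged over the diets the 1368 calls ranged from 157, without null casein pool 2, to 2339, without wild type casein pool 1.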

How the data were processed

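Total RNA (8 µg per array) of 12 fat pad pools was hybridised to Affymetrix arrays. The submitters' processing notes name GCOS and RMA. The deposited values are taken as log2, the scale RMA gives, and the authors centred each probe set on its median over the 12 arrays, since every median is 0 within 1e-06; the array medians ran from -0.02 to 0.02. The log base is not given in the sources used here, and scanner intensities and scan dates were not used. Of 45101 probe sets, 34958 list 1 gene, 932 several and 9211 none; the gene value is the mean over probe sets of 1 gene, with no filter, because centred values show no level. Differences were tested two-sided with limma 3.58.1 in R 4.3.3 on 4 group means over all 12 pools (8 residual and 2.5 prior degrees of freedom), with Benjamini-Hochberg adjustment over 18194 genes at 0.05. The fit was tested on simulated data. Correlations used SciPy 1.17.1. The number of arrays limits the precision.

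The members and lists were chosen with earlier results of these data known. Beyond the members, a few lead genes of the lists were named always, as were up to 4 called genes of smallest p for each list and comparison, and the 8 genes nearest to a member by r; Cpn2, Hadha and Acot11's values were added after the data were seen. The alternatives were other rules for the gene value, another normalization, array weights, a muscle covariate, fewer pools, a replicate block and other fits.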

Additional observations from a re-analysis of the deposited data

How the results depend on the processing

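Of 1359 alternative values of the 63 member differences, under 22 settings, 1319 kept their direction and side of the threshold, 33 reversed, 7 became called and 0 lost a call. Members called for genotype on the high fat diet went from 0 to 2 with array weights, to 1 with only the 2 groups compared, and ranged from 0 to 1 leaving out a pool. Averaged over diets the count was 2 with array weights and ranged from 0 to 1 leaving out a pool. Array weights called Dio2 (0.0360) and Prdm16 (-0.41, adjusted p 0.0191) on the high fat diet, and Cox7a1 (-1.47, 0.0483) and Dio2 (0.71, 0.0366) averaged; without null casein pool 1 Dio2 passed (0.0450 and 0.0241). With each probe set tested by itself, added after seeing the data, 0 members passed in any comparison.

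Reversals, whose cause was not tested, were these. Array weights turned the diet difference in null mice to -0.15 for Ppargc1a and -0.0472 for Fabp3, and the genotype difference on high fat to -0.15 for Ppargc1a. A second quantile normalization gave 0.0158 for Prdm16 on casein. The probe set of highest mean gave Fabp3 0.004 for genotype on casein, 0.0247 averaged, and 0.0133 for diet averaged. Without the 3 muscle-rich pools the genotype difference on high fat was 0.13 for Ucp1, 0.67 for Cidea and 0.66 for Elovl3, and 0.0621 averaged for Fabp3.

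Leaving out a pool, reversals lay in these ranges. For genotype on high fat: Cidea -1.13 to 0.4849, Cox8b -0.0893 to 0.83, Elovl3 -0.71 to 0.45, Fabp3 -0.0152 to 0.98 and Ppargc1a -0.14 to 0.35. For diet in null mice: Ucp1 -2.86 to 0.29, Cox8b -0.93 to 0.0051 and Fabp3 -0.18 to 0.38. For genotype on casein: Dio2 -0.077 to 0.71 and Prdm16 -0.20 to 0.17. For genotype averaged: Cox8b -0.51 to 0.0734, Fabp3 -0.30 to 0.19 and Ppargc1a -0.25 to 0.0108. For diet averaged: Ppargc1a -0.17 to 0.0713.

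Genes called for genotype on high fat numbered 5120 with array weights and 655 after a second quantile normalization, against 1077. Comparisons with 0 genes called in the main fit also moved. For diet in null mice 942 genes were called with array weights. For genotype on casein 86 were called without the 3 muscle-rich pools and 46 without wild type casein pool 1. The labels do not say whether pool numbers pair the samples. Over 18 same-numbered pairs r ran from -0.61 to 0.59, 3 above 0.1, and 4 of 12 pools correlated best with their own number. Null casein pool 3 and null high fat pool 3 were each other's best match (0.59), and null casein pool 1 was closest to null high fat pool 1 (0.55). These correlations cannot settle a pairing, since pools also differed in genes of muscle and other tissues. With the number as a replicate block the calls for genotype on high fat were 542, and 0 members passed. The limma adjusted p of Ucp1 for genotype averaged was then 0.0968 in place of 0.164.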

Other observations

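Among 16 cues that reach brown and beige fat cells from outside (BMP, FGF and natriuretic peptide signalling), 1 was called between genotypes, a share near that of all genes (5.92% on the high fat diet and 7.52% averaged over the diets). Npr3, the receptor that clears natriuretic peptides, fell in null against wild type pools on the high fat diet by 2.39 ± 0.36 on the log2 scale (limma, adjusted p = 0.0165), from a wild type mean of 0.84 ± 0.35 to a null mean of -1.56 ± 0.40 (SD, n = 3 each). Averaged over the diets it fell by 1.80 ± 0.25 (adjusted p = 0.00939). The list's median difference on the high fat diet was -0.11, against -0.03 over all genes, with 0 genes called higher. Without null high fat pool 2 or 3 no gene was called on that diet, Npr3 included.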
